A study of Mus musculus with 6 samples.

Results

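The nuclear genes for subunits of the mitochondrial respiratory chain and ATP synthase were examined in 4T1, a mouse mammary carcinoma cell line. Members were the protein-coding genes of the mouse annotation (GENCODE M21, mm10) whose symbols begin with the subunit names Ndufa, Ndufb, Ndufc, Ndufs, Ndufv, Sdha to Sdhd, Uqcr, Cox4 to Cox8 or Atp5, without the Ndufaf assembly factors. The table lists 86 of the 90 genes annotated under these names, among 26094 listed genes in all. Of the 86, 36 encode complex I subunits, 4 complex II, 8 complex III, 17 complex IV and 16 complex V. The remaining 5 match the prefixes but are assembly or related factors (Sdhaf1 to Sdhaf4, which help build complex II, and Atp5s), so they are described apart, and Ndufa4 and Ndufa4l2 were placed with complex IV.

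Complexes I to IV pass electrons from NADH and succinate to oxygen and, except for complex II, pump protons across the inner mitochondrial membrane, and complex V (ATP synthase) uses that gradient to make ATP. Most subunits are made from nuclear genes and imported, while a small core of complexes I, III, IV and V is encoded by mitochondrial DNA, so each of these enzymes needs the products of both genomes. Nuclear subunit genes are known to share promoter elements for factors such as NRF1, GABP, YY1 and the estrogen-related receptors.

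The cells had been infected with a pLVX-IRES-neo lentivirus carrying mouse Limch1 (Limch1_OE, 3 libraries) or with the vector without insert (Vector, 3 libraries), and stable lines were selected with antibiotic. Limch1 encodes an actin-associated protein that activates non-muscle myosin II, and the comparison asks what its expression changes. Both groups carry the vector, and which promoter drives the insert is not stated in the labels. Separate infections or cultures behind the 3 libraries of a group are not recorded, and p-values therefore rest on spread among libraries that may be technical. Groups came from the sample titles, because the genotype field numbers the overexpressed gene from Limch1 to Limch3 along the series.

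Values are FPKM (fragments counted per transcript length and per library size), summed over the listed transcripts of a gene. Library sums lay between 414837 and 425064 FPKM, and the read depth is unknown. Limch1 was at 23.96, 23.31 and 25.69 FPKM in Limch1_OE replicates 1 to 3 and at 0.25, 0.15 and 0.1 FPKM in Vector replicates 1 to 3, which matches the labels (log2 difference 4.44, SE 0.08, limma adjusted p = 1.89e-09; exact permutation p = 0.1, the smallest that 3 against 3 allows). The epithelial markers Krt8, Krt18, Krt19, Epcam and Cdh1 lay between 28.41 and 637.27 FPKM. Of these, Epcam and Cdh1 fell (log2 differences of -0.44 and -0.18) and the keratins did not pass, and the part of this in the results below was not tested. Of 20 markers of leukocytes, fibroblasts, endothelium, muscle and adipocytes, the 12 listed reached at most 0.36 FPKM in any library. On all tested genes the second principal component (8.98% of the variance) put Limch1_OE replicate 1 at 14.4, away from replicates 2 and 3 at -4.41 and -10.6, and this library also had the highest mitochondrial mRNA level. The labels name no batch.

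Most nuclear respiratory chain genes did not differ detectably between the groups. Of 82 tested members (at least 1 FPKM in at least 3 libraries), 12 rose, 7 fell and 63 did not pass the test, which was limma on log2(FPKM + 1) with an adjusted p under 0.05. Over all 11842 tested genes 34.6% passed, 20.2% higher and 14.4% lower, against 23.2% of the members. The median log2 difference was 0.05 for the members and 0.04 for all tested genes. Differences ran from -0.33 for Ndufa5 to 0.50 for Atp5mpl, and only Atp5mpl exceeded 0.5 in size, 1.22% of members against 8.14% of all tested genes. The groups did not overlap for 31 members, 37.8% against 49.1% of all tested genes, and these 31 included all 19 that passed. In bulk RNA, fewer cells with a transcript and less transcript per cell cannot be told apart.

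**Figure D1:**
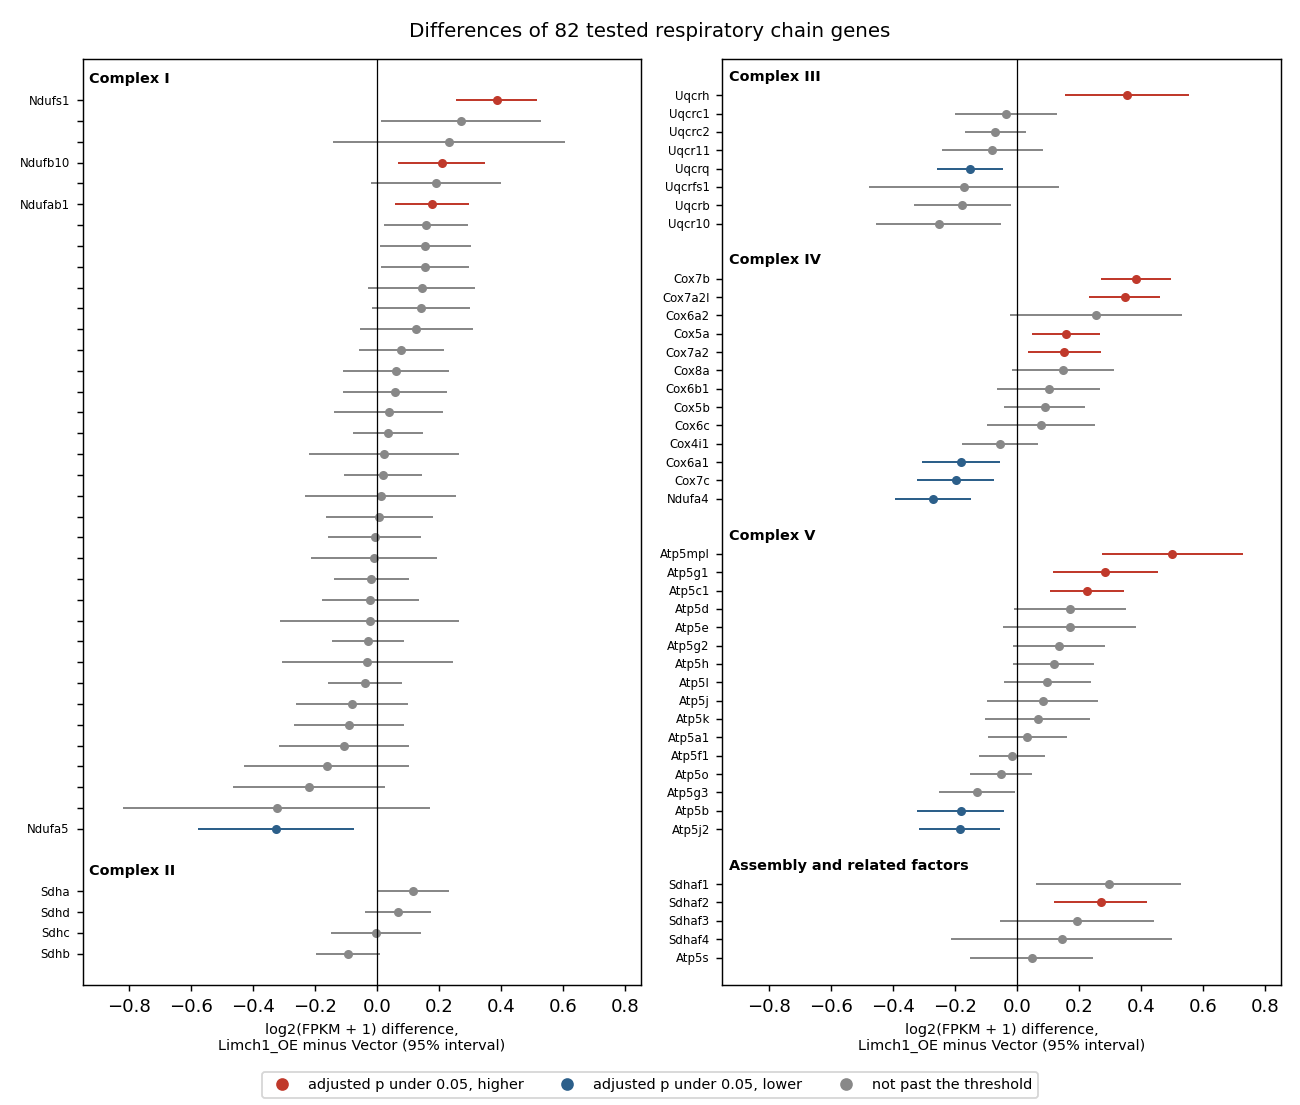
Log2(FPKM + 1) difference, Limch1_OE minus Vector, for the 82 tested members grouped by complex (points) with 95% intervals from limma (lines), coloured by whether the adjusted p was under 0.05, with names in complex I only for the genes that passed. The 12 genes that rose and 7 that fell are spread over complexes I, III, IV, V and the factors, and none of the 4 complex II subunits passed.

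The split between directions depended on scaling and on single libraries. It was 8 higher and 10 lower with trimmed mean of M values (TMM) scaling and 17 higher and 4 lower with quantile normalization. The 7 lower calls became 1 without Limch1_OE replicate 2, without Vector replicate 1 or without Vector replicate 2, and 4 without Limch1_OE replicate 1. None of the 19 genes changed sign under any of the 17 alternatives, and 4 of them, Atp5mpl, Cox7b, Cox7a2l and Ndufa4, passed under all 17. Of the other 15, 6 lost the call under 1 to 3 alternatives and 9 under 7 to 11.

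**Figure D2:**
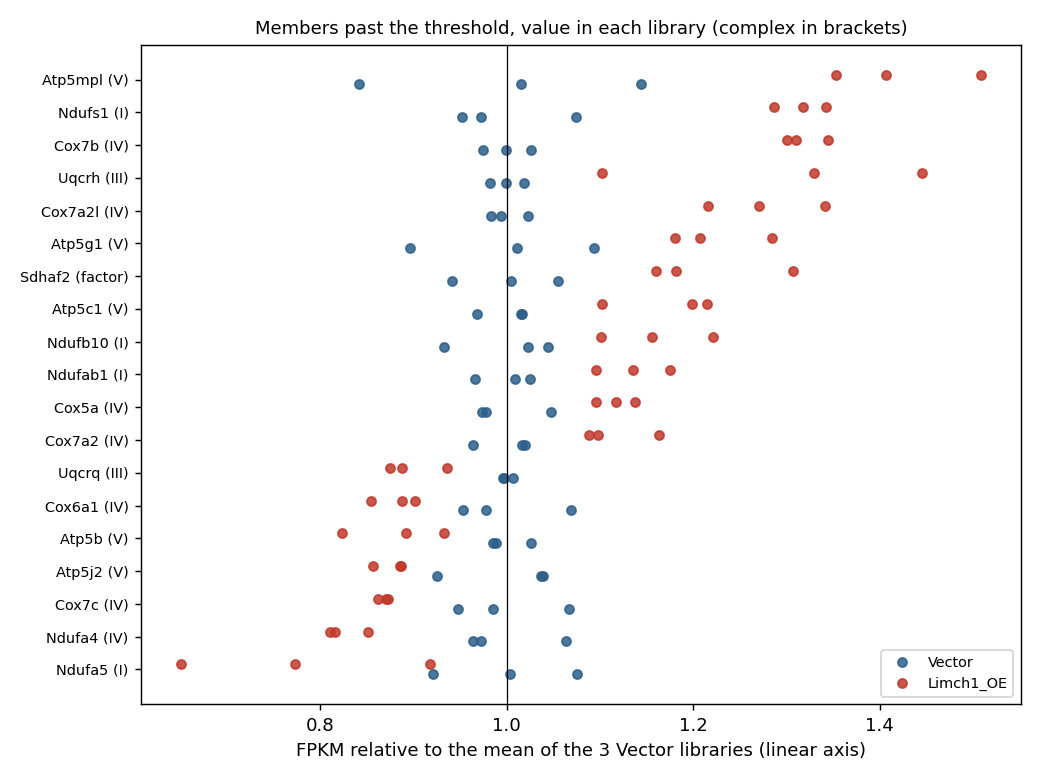
FPKM in each library for the 19 members that passed, divided by the mean of the 3 Vector libraries (linear axis), with the complex in brackets. The points of the 2 groups are separate within each gene, narrowly so for Ndufa5 at the bottom, and Atp5mpl at the top has the largest ratio of means, 1.42.

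The promoter windows of 4 of these genes are printed because they include members of both directions with and without the shared elements named above. Windows run from 250 bases before to 50 after the RefSeq transcription start (GRCm38.p6, the mm10 assembly). Capitals mark matches, on either strand, to GCATGCGC (the core of the NRF1 element), CCGGAAG (the ETS element bound by GABP), AAGATGGC (YY1) or AAGGTCA (estrogen-related receptors). Cox7b (chrX:106015450-106015749, plus strand) and Uqcrh (chr4:116075021-116075320, minus strand) rose, and Ndufa4 (chr6:11907401-11907700, minus strand) and Cox6a1 (chr5:115348909-115349208, minus strand) fell.
Cox7b: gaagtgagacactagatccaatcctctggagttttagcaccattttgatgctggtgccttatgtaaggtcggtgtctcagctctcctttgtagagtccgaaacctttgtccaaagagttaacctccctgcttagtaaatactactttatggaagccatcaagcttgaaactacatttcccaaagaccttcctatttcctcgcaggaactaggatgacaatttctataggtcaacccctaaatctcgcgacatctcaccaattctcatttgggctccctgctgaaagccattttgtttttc
Uqcrh: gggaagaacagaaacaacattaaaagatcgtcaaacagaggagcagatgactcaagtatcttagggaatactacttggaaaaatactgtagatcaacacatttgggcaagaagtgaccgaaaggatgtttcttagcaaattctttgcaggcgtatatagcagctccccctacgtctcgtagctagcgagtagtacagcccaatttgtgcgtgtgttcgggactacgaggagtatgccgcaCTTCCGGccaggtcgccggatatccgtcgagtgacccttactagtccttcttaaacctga
Ndufa4: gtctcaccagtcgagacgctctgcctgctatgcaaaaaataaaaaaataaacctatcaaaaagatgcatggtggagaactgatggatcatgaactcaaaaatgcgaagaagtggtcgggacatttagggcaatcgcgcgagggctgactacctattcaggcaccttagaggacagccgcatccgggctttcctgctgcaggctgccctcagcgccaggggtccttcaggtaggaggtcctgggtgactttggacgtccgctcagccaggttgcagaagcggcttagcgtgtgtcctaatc
Cox6a1: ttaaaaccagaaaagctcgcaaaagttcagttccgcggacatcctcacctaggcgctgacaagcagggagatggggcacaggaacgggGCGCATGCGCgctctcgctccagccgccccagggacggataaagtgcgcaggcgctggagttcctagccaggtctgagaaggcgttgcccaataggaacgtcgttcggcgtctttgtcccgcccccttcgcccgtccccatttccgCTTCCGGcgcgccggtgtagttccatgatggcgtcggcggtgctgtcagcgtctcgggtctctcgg
Cox6a1 held 2 overlapping NRF1 cores on opposite strands and an ETS match, Uqcrh held an ETS match, and Cox7b and Ndufa4 held none of the 4. Over the 72 members with a window in the RefSeq table, 13.9% had the NRF1 core, 26.4% the ETS element, 13.9% the YY1 element and 11.1% the estrogen-related receptor element. Among the 8520 tested genes with a window, the shares were 6.58%, 22.3%, 5.79% and 3.57%. The general promoter strings searched alongside were GGGCGG (SP1), in 44.4% of members against 71.9% of those tested genes, TATAAA, in 11.1% against 8.0%, and CCAAT, in 41.7% against 43.7%. The 72 members include 3 that were not tested, none of which had any of the first 4 elements. Of the 10 members with a window that rose, 2 had the ETS element and none the other 3. Of the 6 that fell, 1 had the NRF1 core, 1 the ETS element, 1 the YY1 element and none the receptor element. A match is a string of letters in a window, not a measured site.

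Complex I, the NADH dehydrogenase, had 3 of 36 members higher, 1 lower and 32 not past the threshold, with a median log2 difference of 0.02. The shares over all tested genes were larger, 20.2% higher and 14.4% lower. Ndufs1 (ENSMUSG00000025968, mm10 chromosome 1, 63143596 to 63176833, minus strand), the core subunit that carries iron-sulfur clusters in the peripheral arm, was at 39.16, 40.11 and 40.84 FPKM in Limch1_OE and at 29.6, 28.98 and 32.7 FPKM in Vector. All Limch1_OE libraries were above all Vector libraries (log2 difference 0.39, SE 0.06, limma adjusted p = 0.00125). Its value is spread over several transcripts. The more abundant of its principal transcripts overlapped between groups, at 13.07, 19.43 and 17.4 FPKM in Limch1_OE and 12.09, 15.65 and 16.54 in Vector, while the second principal transcript was at 20.78, 15.76 and 17.02 against 13.08, 9.51 and 12.36. With the most abundant transcript alone the gene's difference was 0.16 and did not pass. Ndufs1 shares bases with Eef1b2 on the opposite strand, at 285.72 to 311.18 FPKM with a log2 difference of 0.07 (limma adjusted p = 0.281). The labels do not state whether counting used strand, and the part of shared reads was not tested.

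The other complex I genes that rose were accessory subunits. Ndufb10, of the membrane arm, was at 41, 43.33 and 39.07 FPKM in Limch1_OE and 36.29, 37.05 and 33.11 in Vector (log2 difference 0.21, limma adjusted p = 0.0273). Ndufab1, the mitochondrial acyl carrier protein, was at 26.35, 27.29 and 28.26 FPKM in Limch1_OE and 24.26, 23.21 and 24.65 in Vector (log2 difference 0.18, limma adjusted p = 0.0274). In both genes the groups were separate in the summed values, and the calls were lost under 9 and 7 of the 17 alternatives. The most abundant transcript of each gene, a principal one, overlapped between groups. With protein-coding transcripts only, the differences were 0.19 for Ndufb10 (limma adjusted p = 0.469) and 0.10 for Ndufab1 (limma adjusted p = 0.321). Ndufab1 also has a processed pseudogene, Ndufab1-ps, listed at 4.04 to 5.44 FPKM, and reads can be split between the copies.

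Ndufa5, an accessory subunit of the peripheral arm, was the only complex I gene that fell. It was at 5.81, 6.9 and 8.19 FPKM in Limch1_OE and 8.22, 9.6 and 8.96 in Vector (log2 difference -0.33, SE 0.11, limma adjusted p = 0.0472). The highest Limch1_OE and the lowest Vector library almost touched, and the call was lost under 9 alternatives.

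The 29 accessory subunits of complex I summed to 959 ± 48.7 FPKM with Limch1 and 934 ± 33.4 FPKM with the vector (SD over 3 libraries). Within the accessory genes the Ndufb subunits, which sit in the membrane arm, had positive differences in 9 of 10 cases with a median of 0.16, and only Ndufb10 passed. The 13 genes with the Ndufa prefix, Ndufab1 among them, had negative differences in 9 cases with a median of -0.02. Over all 11842 tested genes, 6741 differences were positive and 5101 negative.

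Ndufa12, an accessory subunit, varied widely between libraries of both groups. It was at 28.41, 51.41 and 41.1 FPKM in Limch1_OE and 38.63, 48.93 and 63.2 in Vector, a coefficient of variation of 28.6% and 24.6%, against a median over the 82 members of 5.98% and 5.96%. Its 95% interval ran from -0.81 to 0.17, and at this spread no difference was detectable. The annotated principal transcript held only 16.7% of its FPKM.

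Complex II, succinate dehydrogenase, is the smallest complex and has no mitochondrially encoded subunit. Sdha, the flavoprotein, was at 69.88, 75.21 and 73.49 FPKM in Limch1_OE and 66.91, 64.82 and 69.8 in Vector, with groups that did not overlap (log2 difference 0.12, 95% interval 0.0035 to 0.23, limma adjusted p = 0.102). Sdhb, the iron-sulfur subunit, was at 48.8, 48.81 and 51.33 FPKM in Limch1_OE and 52.91, 52.59 and 53.64 in Vector (log2 difference -0.09, 95% interval -0.19 to 0.01, limma adjusted p = 0.130). The membrane anchors Sdhc and Sdhd overlapped between groups, Sdhc at 32.34, 33.81 and 36.31 against 32.28, 34.06 and 36.43 FPKM, and Sdhd at 94.91, 99.58 and 100.65 against 91.41, 96.38 and 93.48 FPKM. None of the 4 passed, and their intervals lay within -0.19 and 0.23 on the log2 scale.

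Complex III, which passes electrons from ubiquinol to cytochrome c, had 1 of 8 members higher and 1 lower, with a median of -0.12. The shares over all tested genes were 20.2% higher and 14.4% lower. Over all 11842 tested genes 5101 differences were negative, and in complex III 7 of 8 were. The exception was Uqcrh (ENSMUSG00000063882, mm10 chromosome 4, 116066965 to 116075071, minus strand), the hinge subunit that contacts cytochrome c. It was at 57.01, 74.75 and 68.78 FPKM in Limch1_OE and 52.7, 51.71 and 50.79 in Vector. The Vector libraries lay close together, while Limch1_OE replicate 1 was nearer to them than to the other Limch1_OE libraries (log2 difference 0.35, SE 0.09, limma adjusted p = 0.0141). Without that library the difference was 0.46, and without Limch1_OE replicate 2 it was 0.27. A processed pseudogene, Gm12854, lies over Uqcrh on the opposite strand and was at 6.14 to 9.27 FPKM.

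Uqcrq, a small membrane subunit, fell. It was at 49.41, 50.14 and 52.86 FPKM in Limch1_OE and 56.3, 56.88 and 56.33 in Vector (log2 difference -0.15, SE 0.05, limma adjusted p = 0.0303), and the call was lost under 10 alternatives. Uqcr10, another small subunit, was at 32.66, 30.24 and 32.39 FPKM against 37.51, 43.66 and 33.5, and lay just outside the threshold (log2 difference -0.25, limma adjusted p = 0.0522), as did Uqcrb at 36.83, 34.23 and 38.49 against 38.7, 40.53 and 45.05 FPKM (-0.18, limma adjusted p = 0.0751). The large core proteins Uqcrc1 and Uqcrc2 were at -0.04 and -0.07, and the Rieske iron-sulfur protein gene Uqcrfs1 at -0.17 (limma adjusted p = 0.354). Without Limch1_OE replicate 1 Uqcrfs1 was at -0.32 (limma adjusted p = 0.0401), and without Vector replicate 3 Uqcr10 was at -0.34 (limma adjusted p = 0.0157). Each of these fits left out the library lying furthest against the difference, and neither gene passed with all 6 libraries. Cyc1, the cytochrome subunit of the same complex, is not under the Uqcr prefix. It was at 36.47, 39.75 and 42.69 FPKM in Limch1_OE and 47.49, 48.86 and 46.83 in Vector, and it fell (log2 difference -0.26, SE 0.06, limma adjusted p = 0.0107).

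Complex IV, cytochrome c oxidase, had 7 of its 13 tested members past the threshold, 4 higher and 3 lower, with a median log2 difference of 0.10. The share over all tested genes was 34.6%, with 20.2% higher and 14.4% lower, and no test set the complex against other genes. The highest were Cox7b and Cox7a2l. Cox7b (ENSMUSG00000031231, mm10 chromosome X, 106015700 to 106022450, plus strand), a small transmembrane subunit, was at 28.75, 27.8 and 28 FPKM in Limch1_OE and 21.94, 21.35 and 20.83 in Vector (log2 difference 0.38, SE 0.05, limma adjusted p = 5.38e-04). Each group was tight, at 28.2 ± 0.501 and 21.4 ± 0.555 FPKM (mean ± SD, n = 3), and the groups lay far apart.

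Cox7a2l (ENSMUSG00000024248, mm10 chromosome 17, 83501918 to 83517330, minus strand), which joins complexes III and IV in supercomplexes, was at 142.97, 149.39 and 157.76 FPKM in Limch1_OE and 115.66, 116.91 and 120.27 in Vector (log2 difference 0.35, SE 0.05, limma adjusted p = 0.00109). Its relative Cox7a2, the subunit isoform found in most tissues, rose by less, from 27.94, 28.02 and 26.47 FPKM in Vector to 29.89, 31.97 and 30.16 in Limch1_OE (log2 difference 0.15, limma adjusted p = 0.045), and lost the call under 11 alternatives. Cox5a, on the matrix side, was at 63.51, 62.37 and 61.15 FPKM in Limch1_OE and 54.36, 58.48 and 54.6 in Vector (0.16, limma adjusted p = 0.0310). The Cox5a call was lost under 7 alternatives.

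Among the 3 that fell, Ndufa4 (ENSMUSG00000029632, mm10 chromosome 6, 11900292 to 11907497, minus strand) differed most. It was named for complex I and is now placed in complex IV. It was at 60.83, 57.93 and 58.32 FPKM in Limch1_OE and 69.5, 76.03 and 68.85 in Vector (log2 difference -0.27, SE 0.05, limma adjusted p = 0.00492), and the groups were well apart. Cox7c, a small transmembrane subunit, was at 40.33, 39.85 and 40.23 FPKM in Limch1_OE and 45.53, 49.33 and 43.83 in Vector (-0.20, limma adjusted p = 0.0204). Cox6a1, the isoform of most tissues, was at 98.78, 100.38 and 95.07 FPKM in Limch1_OE and 108.89, 118.93 and 106.13 in Vector (-0.18, limma adjusted p = 0.0307). The Cox6a1 call was lost under 8 alternatives.

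Where a complex IV subunit has alternative isoforms, the form of most tissues carried nearly all the signal. Cox7a1, Cox7b2, Cox8b and Ndufa4l2, which are known from muscle, testis or hypoxic cells, reached at most 0.21 FPKM in any library and were not tested, and Cox4i2, Cox6b2 and Cox8c have no row among those used here. The principal transcripts of Cox7a1 and Ndufa4l2 were not among the listed ones. Of the forms of most tissues, Cox4i1 was at 326.42 to 372.68 FPKM, Cox6b1 at 73.35 to 92.15 and Cox8a at 104.91 to 130.07. Their log2 differences of -0.05, 0.10 and 0.15 did not pass, while Cox6a1, Cox7a2, Cox7b and Ndufa4, described above, did. Among the other isoforms the muscle gene Cox6a2 was the exception, at 5.39, 3.94 and 4.16 FPKM in Limch1_OE and 3.97, 3.04 and 3.77 in Vector, overlapping between groups (0.26, limma adjusted p = 0.134). The 3 muscle genes Acta1, Ckm and Myh1 were at or under 0.09 FPKM where listed.

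Complex V, ATP synthase, had 3 of 16 members higher and 2 lower, with a median log2 difference of 0.09. The shares over all tested genes were 20.2% higher and 14.4% lower, near those of this complex. Atp5mpl (ENSMUSG00000021290, mm10 chromosome 12, 111961375 to 111966977, minus strand), a small proteolipid of the membrane part, had the largest difference of all members. It was at 37.51, 34.98 and 33.66 FPKM in Limch1_OE and 20.92, 28.44 and 25.25 in Vector, a ratio of means of 1.42 (log2 difference 0.50, SE 0.10, limma adjusted p = 0.00541). All Limch1_OE libraries lay above all Vector libraries, and the Vector libraries spread more widely.

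Atp5c1 (chromosome 2, 10056016 to 10080510, minus strand), the gamma subunit of the rotating central stalk, was at 143.01, 157.62 and 155.62 FPKM in Limch1_OE and 131.86, 125.68 and 131.78 in Vector (log2 difference 0.23, SE 0.05, limma adjusted p = 0.0101). Its transcripts were assigned unevenly, with the principal one at 95.42 in Limch1_OE replicate 3 and 86.48 in Vector replicate 1 but at 117.63 or more elsewhere, and the sum is less variable than its parts. Atp5b (chromosome 10, 128083273 to 128090391, plus strand), the catalytic beta subunit and the most abundant member, was at 833.74, 903.39 and 944.32 FPKM in Limch1_OE and 997.82, 1000.74 and 1039.42 in Vector. The groups were separate, with the widest spread in Limch1_OE (log2 difference -0.18, SE 0.06, limma adjusted p = 0.0454), and the call was lost under 9 alternatives. Its catalytic partner Atp5a1 overlapped between groups, at 276.25, 302.89 and 307.39 against 282.82, 284.69 and 298.34 FPKM (0.03, 95% interval -0.09 to 0.16).

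Atp5j2, the f subunit of the membrane part, fell, from 45.2, 45.32 and 40.34 FPKM in Vector to 38.68, 37.37 and 38.62 in Limch1_OE (log2 difference -0.18, limma adjusted p = 0.0335). The call was lost under 10 alternatives. The 4 peripheral stalk genes Atp5f1, Atp5h, Atp5j and Atp5o, which hold the catalytic head still, had no call and together gave 337 ± 5.61 FPKM with Limch1 and 333 ± 1.43 FPKM with the vector (SD over 3 libraries). The lowest member of the complex, the e subunit gene Atp5k, overlapped at 10.15 to 12.13 and 10.21 to 10.41 FPKM.

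The c subunit, whose ring turns with the passage of protons, is made from 3 genes with the same mature protein. Atp5g1 rose, from 27.62, 25.53 and 22.63 FPKM in Vector to 30.5, 29.82 and 32.44 in Limch1_OE (log2 difference 0.29, SE 0.07, limma adjusted p = 0.0174). Atp5g2 was at 91.85, 102.01 and 103.26 against 90.6, 95.68 and 84.04 FPKM (0.14, limma adjusted p = 0.136), and Atp5g3 at 67.24, 69.48 and 72.64 against 72.34, 79.85 and 76.97 FPKM (-0.13, limma adjusted p = 0.0923). Summed, the 3 genes gave 189.59, 201.31 and 208.34 FPKM in Limch1_OE and 190.56, 201.06 and 183.64 in Vector, which overlap. As a share of that sum, Atp5g3 was 34.9 ± 0.481% in Limch1_OE and 39.9 ± 1.98% in Vector, and Atp5g1 was 15.5 ± 0.641% and 13.2 ± 1.16% (SD, n = 3 each).

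**Figure D3:**
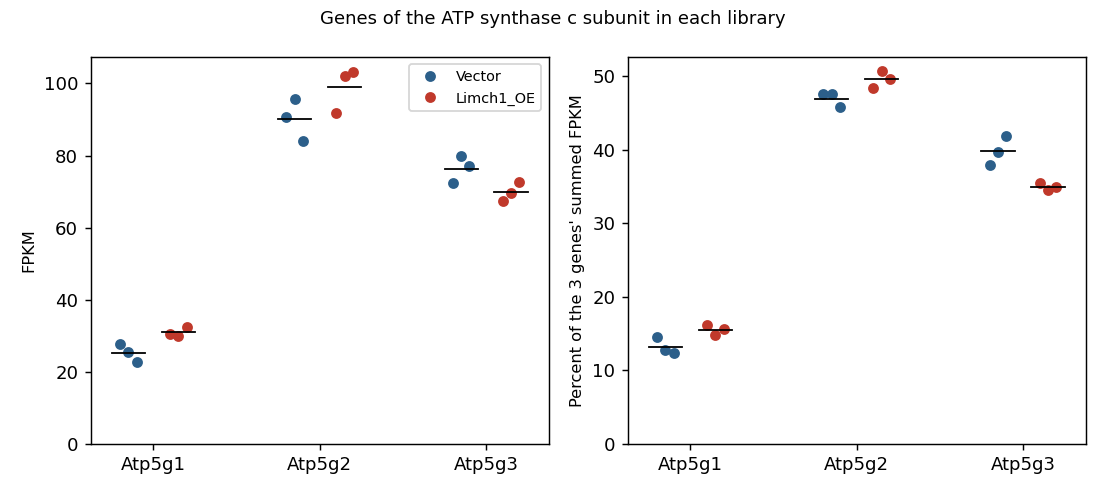
FPKM (left) and percent of the summed FPKM (right) of the c subunit genes Atp5g1, Atp5g2 and Atp5g3 in each library, with bars at group means. Atp5g1 lay higher and Atp5g3 made up a lower share in the 3 Limch1_OE libraries, while the sums overlapped.

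The 5 genes that match the prefixes without encoding subunits all had positive differences, from 0.05 to 0.30, beside 6741 positive among all 11842 tested genes. Sdhaf2, which attaches the flavin to Sdha, rose, from 20.82, 18.58 and 19.82 FPKM in Vector to 23.33, 25.8 and 22.91 in Limch1_OE (log2 difference 0.27, limma adjusted p = 0.0129). It overlaps Cpsf7 on the opposite strand, which rose by a like amount, 0.25 (limma adjusted p = 0.00351), and the part of shared reads was not tested. With its most abundant transcript alone, the Sdhaf2 difference was 0.14 and did not pass (limma adjusted p = 0.46). With protein-coding transcripts only, the Sdhaf2 difference was 0.19 and did not pass either (limma adjusted p = 0.0603). Sdhaf1 was at 2.16, 1.97 and 1.84 against 1.3, 1.68 and 1.34 FPKM, just outside the threshold (0.30, limma adjusted p = 0.0503). It passed without Vector replicate 2, the Vector library nearest to Limch1_OE (0.36, limma adjusted p = 0.0405).

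Levels per length differed far more within complexes than between groups. Mean FPKM over the 6 libraries ran from 2.88 for Ndufb2 to 163 for Ndufb9 in complex I, a 56.5-fold span. It ran from 34.2 for Sdhc to 96.1 for Sdhd in complex II, from 14.4 for Uqcr11 to 142 for Uqcrc1 in complex III, from 4.05 for Cox6a2 to 353 for Cox4i1 among the 13 tested genes of complex IV and from 10.6 for Atp5k to 953 for Atp5b in complex V. Across the 8 complex III genes Spearman's rho between level and the length of the most abundant transcript was 0.881, and across the 16 complex V genes 0.838, but it was 0.146 across the 36 complex I genes and -0.132 across the 13 complex IV genes. These are descriptions across genes of the same libraries, and genes are not independent replicates.

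**Figure D4:**
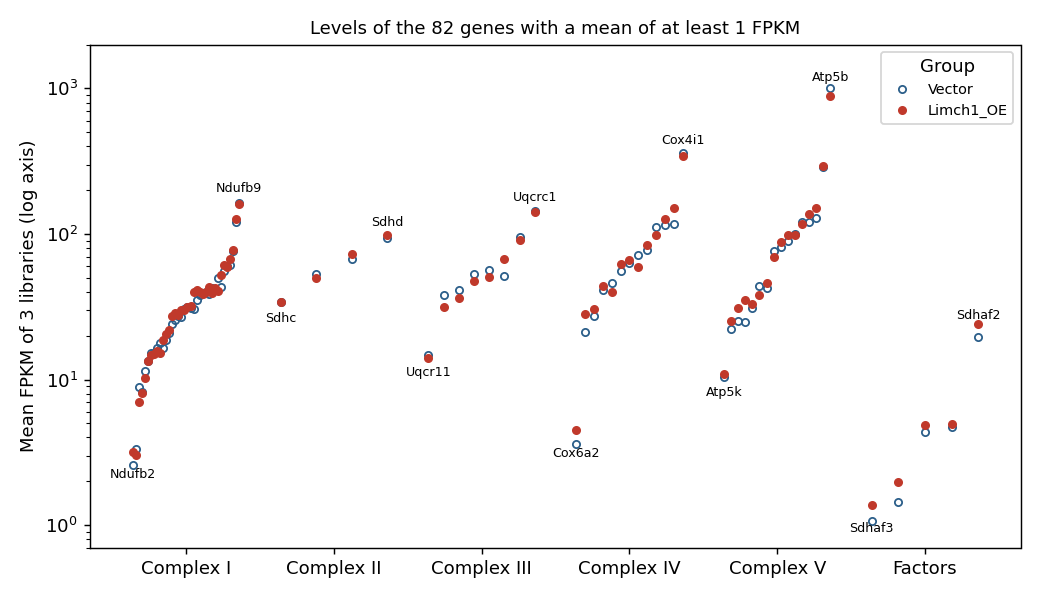
Mean FPKM of 3 libraries per group (log axis) for the 82 members with a mean of at least 1 FPKM, ordered by level within each complex, Vector as open and Limch1_OE as filled points. Levels span 2.81-fold in complex II and 89.7-fold in complex V, while the points of the groups nearly coincide.

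Summed over complexes, the nuclear subunits overlapped between groups, and the mitochondrially encoded subunits did not. The 81 nuclear subunit genes summed to 5124.28, 5485.56 and 5561.24 FPKM in Limch1_OE and 5260.9, 5472.32 and 5403.02 in Vector, a ratio of means of 1.002. By complex the ratio was 1.03 for I, 1.03 for II, 0.968 for III, 1.03 for IV and 0.977 for V, each with overlapping libraries. Such sums weigh abundant genes most. In complex V the gene Atp5b alone held 894 of a mean 2171 FPKM in Limch1_OE and 1013 of 2222 in Vector. Of the 16 complex V members 11 had positive and 5 negative differences, beside 6741 positive among all 11842 tested genes. The 13 mitochondrially encoded subunit genes summed to 34836.79, 24919.88 and 25485.78 FPKM in Limch1_OE and 21189.1, 18266.27 and 18351.44 in Vector, a ratio of means of 1.47, with no overlap. Limch1_OE replicate 1 was the highest for the mitochondrial genes and the lowest for the nuclear ones.

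The mitochondrial to nuclear FPKM ratio was read by complex. In complex III, where mt-Cytb is the only mitochondrial subunit, it was 6.65, 4.20 and 4.31 in Limch1_OE and 2.38, 1.90 and 2.02 in Vector. Complex I gave 7.25, 4.44 and 4.61 against 3.66, 2.89 and 2.89, and complex V 3.59, 2.71 and 2.63 against 1.94, 1.79 and 1.66. In complex IV the groups overlapped, at 13.8, 9.32 and 9.53 against 10.3, 8.18 and 8.99. The most abundant mRNA of that complex, mt-Co1, was at 10670.31, 7239.82 and 7532.69 against 8684.15, 7205.26 and 7428.57 FPKM (log2 difference 0.11, limma adjusted p = 0.612), while the other 12 mitochondrial genes rose. With each library rescaled without all mitochondrially encoded genes, 14 members were higher and 7 lower.

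**Figure D5:**
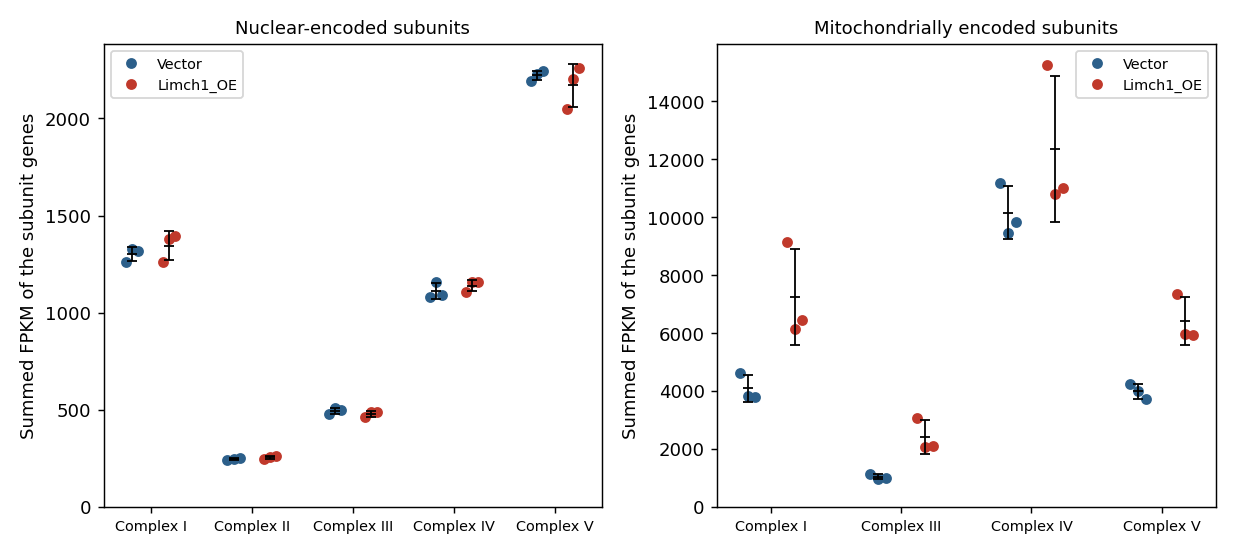
Summed FPKM per library of nuclear-encoded (left) and mitochondrially encoded (right) subunit genes by complex, with means and SD of 3 libraries as black marks. Nuclear sums overlap between groups in each of the 5 complexes, and mitochondrial sums are separate in complexes I, III and V.

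Other genes of the pathway were read from lists made for this purpose. Cytochrome c itself, Cycs, which carries electrons from complex III to IV, fell, from 38.06, 37.44 and 42.32 FPKM in Vector to 30.6, 30.39 and 31.12 in Limch1_OE (log2 difference -0.34, SE 0.06, limma adjusted p = 0.00229). Cycs and Cyc1 were the 2 that fell among 16 tested genes of the list of electron carriers and other subunits, beside 14.4% lower over all tested genes. The ubiquinone synthesis genes Coq7 (0.39) and Coq8b (0.31) rose, as did Atp5mpl, which that list shares with the members. The list's median was 0.06. Atpif1, the inhibitor of ATP synthase, did not pass (0.06, limma adjusted p = 0.563).

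Most assembly factors did not pass. For complex I, 2 of 17 tested rose, Dmac1 (0.35) and Ecsit (0.25), and Ndufaf6 fell by 0.39, with a median of 0.10. For complex III, 2 of 6 rose, Uqcc3 (0.31) and Bcs1l (0.19), the chaperone that inserts the Rieske protein, with a median of 0.13. For complex IV, 3 of 21 rose, Surf1 (0.22), Coa5 (0.17) and Lrpprc (0.27), which stabilises mitochondrial mRNAs, and the insertase gene Cox18 fell by 0.39, with a median of 0.06. None of 3 tested complex V factors passed. For complex II, 1 of 4 rose, the Sdhaf2 described above. In each of these lists the share that passed was below the 34.6% of all tested genes.

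Among 12 regulators of nuclear mitochondrial genes, 3 of 11 tested rose and none fell, with a median of 0.08, beside 20.2% of all tested genes higher and 14.4% lower. Gabpa, the DNA-binding subunit of GABP, was at 23.93, 21.35 and 18.24 FPKM in Limch1_OE and 13.38, 13.37 and 15.34 in Vector (log2 difference 0.56, SE 0.10, limma adjusted p = 0.00305). It overlaps the member Atp5j on the opposite strand, which was at 30.09 to 34.82 FPKM in Limch1_OE and 28.59 to 33.9 in Vector. Tfb2m, needed to start mitochondrial transcription, was at 15.87, 14.59 and 14.56 against 8.61, 9.99 and 11.38 FPKM (0.55, limma adjusted p = 0.00251), and the coactivator gene Pprc1 rose by 0.22. Nrf1, Yy1, Esrra and Tfam were at 0.14, -0.01, 0.04 and -0.03 and did not pass, and Ppargc1a was at 0.04 FPKM or less.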

How the data were processed

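Per the file headers, the authors deposited FPKM for each transcript in 6 libraries. Tools listed by the submitters' processing notes, with no role for any, are StringTie 2.2.1, featureCounts 2.0.1, STAR 2.7.10 and fastp 0.23.2, and the build is mm10. Neither the labels nor the headers state the annotation release, strand use, filters or how multiply mapped reads were treated. The 77865 listed transcripts were summed to 26094 genes, of which 26033 matched GENCODE M21. No counts are listed, so the depth is unknown, no count test was run, and precision rests on the SD of 3 libraries. Every principal transcript was listed for 83 of the 86 members, and for 2 members no principal transcript was.

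Differences were tested by limma 3.58.1 (R 4.3.3, eBayes with trend) on log2(FPKM + 1). The fit held all 11842 genes that reached 1 FPKM in 3 or more libraries. It was two-sided, with Benjamini-Hochberg adjustment and a threshold of 0.05. A run on simulated data used changes larger than those of most members, so it does not bear on how well theirs are detected. Log2 differences are Limch1_OE minus Vector on this scale, which understates changes of low genes. No library pair was identical. The members, lists and tests were chosen with earlier results of these data known, and role groups within complexes and promoter motifs after the values were seen. Named genes were all members past the threshold, the highest and lowest member of each complex, all of complex II, isoform pairs and members lacking a listed principal transcript, plus listed pathway genes past the threshold. The members Ndufa12, Uqcr10, Uqcrb, Uqcrc2, Uqcrfs1, Atp5a1, Atp5j and Sdhaf1, members named only as part of a group, and uncalled genes of the pathway lists, were named after their values were seen. The 17 alternatives covered pseudocounts, filters, scaling, choice of transcripts, the replicate block, the trend and leaving out each library. Single values are printed for named members only, and results that need 1 further member by name are not reported here.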

Additional observations from a re-analysis of the deposited data

How the results depend on the processing

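Over all genes, 2388 higher and 1706 lower calls became 997 and 999 when only each gene's most abundant transcript was used, and 1534 higher with protein-coding transcripts only. The share of calls that were higher was 58.3%, and 48.0% with TMM. For the members, 12 higher and 7 lower became 7 and 3 with no filter on low genes and 5 and 2 with the most abundant transcript. The lower count was also 4 with quantile normalization and 2 without the trend. Leaving out each library in turn gave between 8 and 16 higher and between 1 and 6 lower members, 1597 to 2225 higher and 1285 to 1553 lower genes in all, and 4.40 to 4.49 for Limch1. The cause of these shifts was not tested. Of the 63 uncalled members, the 23 named with values were followed through the alternatives. Among these, signs changed for Sdhc with quantile normalization (0.0224), with rescaling without mitochondrially encoded genes (0.0019) and on leaving out single libraries (-0.0478 to 0.0399). They also changed with quantile normalization and on leaving out single libraries for Ndufb9 (0.0184, and -0.0494 to 0.0094) and Uqcrc1 (0.0177, and -0.0753 to 0.0442), and on leaving out single libraries for Atp5k (-0.0045 to 0.1134). Atp5a1 changed sign with TMM (-0.0064) and Atp5j with the most abundant transcript (-0.0232) and with protein-coding transcripts (-0.0055). Deviations of same-numbered libraries had correlations of -0.002, 0.046 and 0.059, beside -0.067 to 0.027 for differently numbered ones. With 3 libraries per group such values cannot decide whether the numbers pair libraries. With the replicate block 12 members were higher and 7 lower, 16 of the 19 calls being shared. It gave 2219 higher and 1589 lower genes. Without read depth, no counting limit can be set for low members.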
